A study of Mus musculus with 9 samples.

Results

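The Siglec family lectins are cell-surface receptors that bind sialic acids, and 6 of them were read here in sorted mouse brain and spleen cells: Siglech, Cd33, Siglece, Siglec1, Cd22 and Siglecg. The members were taken by gene symbol from the deposited expression table, in which each has 1 probe set that names no other gene, and they are 6 of the 19937 genes measured. The study profiled 3 sorted populations on whole-transcript Affymetrix arrays, with 3 arrays each. Ly6C-high microglia are called MgSCs in the labels, Ly6C-low microglia are called bulk microglia cells, and spleen monocytes are the peripheral group, for which no Ly6C level is labelled. All were isolated from wild-type C57BL/6 mice with no treatment or age given. Mice were perfused, brains were digested with collagenase, leukocytes were enriched on Percoll, and cells were sorted after staining for CD45, CD11b, F4/80, Ly6C and MHC II. The labels do not say whether the arrays of a group came from separate mice or pools, so every p-value measures the spread between these arrays, which may be technical.

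Siglecs are immunoglobulin-like lectins that sense sialic acid on the cell itself or on its neighbours. Most carry inhibitory tyrosine motifs in their cytoplasmic tails, which recruit the phosphatase SHP-1 (Ptpn6) after phosphorylation by Src-family kinases. Others lack such a motif and pair with the activating adaptor DAP12 (Tyrobp), which signals through the kinase Syk. In the mouse, Siglec-H is known as a marker of microglia and plasmacytoid dendritic cells, Siglec-E as an inhibitory receptor of myeloid cells, Siglec-1 (CD169, sialoadhesin) as a macrophage adhesion receptor, and CD22 and Siglec-G as inhibitors of B cell receptor signalling.

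Siglech, Cd33 and Siglece were lower in Ly6C-high microglia than in Ly6C-low microglia, by 8.89-fold, 7.30-fold and 5.93-fold, and the other 3 members did not pass the test. Against spleen monocytes, Ly6C-high microglia had lower levels of every member except Siglech. Ly6C-low microglia had higher Siglech and Cd33 than monocytes, and lower Siglec1, Cd22 and Siglecg. Levels are log2 intensities on the authors' scale, each difference is a log2 fold change, and adjusted p-values are from limma, adjusted over all genes by the Benjamini-Hochberg method and called under 0.05. The 3 comparisons share arrays pairwise, so they are not independent of each other.

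Of the 6 members, 0 were higher and 3 lower in Ly6C-high than in Ly6C-low microglia, beside 4.49% of all genes called higher and 11% called lower. The members' median log2 fold change was -1.54, against 0.05 over all genes. In Ly6C-high microglia against monocytes, 0 members were higher and 5 lower (background 6.88% higher and 14.6% lower), with a median of -1.40 against 0.09 over all genes. In Ly6C-low microglia against monocytes, 2 were higher and 3 lower (background 6.8% and 7.71%), with a median of -0.55 against 0.05. In these comparisons 4, 5 and 5 members had arrays of the groups wholly apart, beside 30.1%, 45.9% and 42.3% of all genes. An exact permutation test of 3 against 3 arrays cannot give a p under 0.1, the value it gave for each of these 14 differences.

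**Figure D1:**
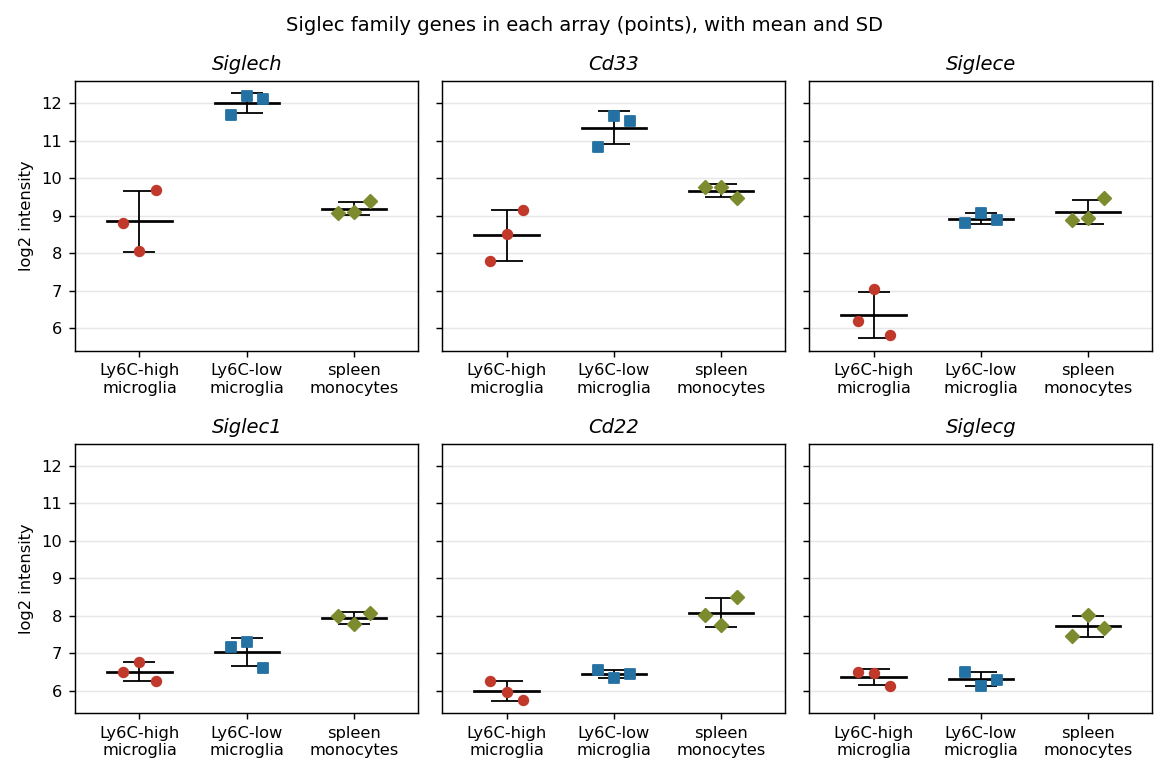
Log2 intensity of the 6 Siglec lectins on each of the 9 arrays, with Ly6C-high microglia, Ly6C-low microglia and spleen monocytes from left to right in each panel; points are arrays, and the bar and whisker are the mean and SD of 3 arrays. Siglech and Cd33 are highest in Ly6C-low microglia, where Siglech spans 11.69 to 12.20 and Cd33 10.84 to 11.66, and Cd22 and Siglecg are highest in monocytes, at averages of 8.09 and 7.72.

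Siglech (Entrez gene 233274), the microglial Siglec that signals through DAP12, read 8.81, 8.05 and 9.68 in Ly6C-high cells, 11.69, 12.20 and 12.10 in Ly6C-low cells, and 9.08, 9.09 and 9.38 in spleen monocytes. All Ly6C-low arrays lay above all others, while the Ly6C-high arrays lay on both sides of the monocyte arrays. The means were 8.85 ± 0.82 in Ly6C-high cells, 11.997 ± 0.27 in Ly6C-low cells, and 9.18 ± 0.17 in monocytes (SD, n = 3 arrays each, as for all means below). Siglech was thus lower in Ly6C-high than in Ly6C-low microglia by a log2 fold change of -3.15 ± 0.36 (SE, adjusted p = 0.000631). It was higher in Ly6C-low microglia than in monocytes by 2.81 ± 0.36 (7.04-fold, adjusted p = 0.00106). Ly6C-high microglia and monocytes did not differ beyond the spread, at -0.34 with a 95% interval of -1.15 to 0.48 (adjusted p = 0.470), and the sign of that difference turned under quantile normalization (0.19).

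Cd33 (Entrez gene 12489), a myeloid Siglec, read 7.79, 8.50 and 9.15 in Ly6C-high cells, 10.84, 11.66 and 11.54 in Ly6C-low cells, and 9.77, 9.77 and 9.46 in monocytes. The 3 groups did not overlap, with Ly6C-low microglia on top, monocytes between and Ly6C-high microglia lowest. The means were 8.48 ± 0.68 in Ly6C-high cells, 11.35 ± 0.44 in Ly6C-low cells, and 9.67 ± 0.18 in monocytes. Cd33 was lower in Ly6C-high than in Ly6C-low microglia by a log2 fold change of -2.87 ± 0.34 (SE, adjusted p = 0.000784), and higher in Ly6C-low microglia than in monocytes by 1.68 ± 0.34 (3.20-fold, adjusted p = 0.0112). It was lower in Ly6C-high microglia than in monocytes at -1.19 ± 0.34 (2.28-fold, adjusted p = 0.0386), a call that ended in 13 of 21 alternative analyses. It ended without Ly6C-high replicate 1 or 2, Ly6C-low replicate 2 or 3 or any 1 monocyte array, at log2 fold changes of -1.29 to -0.85 and limma adjusted p-values of 0.0525 to 0.115. Quantile normalization gave -0.66 (adjusted p = 0.139).

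The promoters of the 3 lectins that were lower in Ly6C-high microglia than in Ly6C-low microglia are given here, all from chromosome 7, so that their letters can be compared. Each runs from 250 bases before to 50 bases after the annotated start, 5′ to 3′ on the gene's strand, from RefSeq on GRCm38.p6: Siglech at chr7:55767934-55768233 (plus strand), Cd33 at chr7:43533122-43533421 (minus strand) and Siglece at chr7:43660112-43660411 (minus strand). Capitals mark GGAAGT, a core that PU.1 and other ETS factors bind, read on either strand.
Siglech: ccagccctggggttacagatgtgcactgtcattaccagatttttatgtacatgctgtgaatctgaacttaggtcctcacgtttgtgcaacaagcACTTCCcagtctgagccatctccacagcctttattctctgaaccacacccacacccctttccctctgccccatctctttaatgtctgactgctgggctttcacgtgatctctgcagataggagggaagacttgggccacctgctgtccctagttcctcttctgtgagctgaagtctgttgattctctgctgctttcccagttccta
Cd33: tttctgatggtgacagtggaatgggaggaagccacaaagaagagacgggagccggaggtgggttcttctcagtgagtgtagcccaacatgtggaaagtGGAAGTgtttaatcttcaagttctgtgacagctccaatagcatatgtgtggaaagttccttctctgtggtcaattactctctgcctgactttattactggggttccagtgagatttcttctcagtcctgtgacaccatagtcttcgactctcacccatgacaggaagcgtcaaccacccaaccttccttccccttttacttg
Siglece: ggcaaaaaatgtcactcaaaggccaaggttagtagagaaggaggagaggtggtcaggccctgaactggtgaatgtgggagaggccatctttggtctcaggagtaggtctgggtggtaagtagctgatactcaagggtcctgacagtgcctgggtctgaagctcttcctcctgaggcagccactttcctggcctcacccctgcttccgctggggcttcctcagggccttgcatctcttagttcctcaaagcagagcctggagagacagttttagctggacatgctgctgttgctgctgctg
GGAAGT occurred once each in the Siglech and Cd33 windows and not in the windows of Siglece, Cd22 or Siglecg, and it occurs in 23.8% of the 32851 RefSeq promoters of the same length. The interferon element of GAAA repeated after a gap of 2 bases (3.44% of promoters) and the octamer ATGCAAAT (1.74%), searched on both strands, were in none of the 5 members with a promoter entry. These matches are descriptions of the letters in these windows.

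The microglial markers moved in the same comparison as Siglech and Cd33. All 9 measured homeostatic microglia markers (of 10 listed) were lower in Ly6C-high than in Ly6C-low microglia, beside 11% of all genes. The markers' median log2 fold change was -2.89. Of the 9, Sparc (-0.50, adjusted p = 0.0343) lost its call in 13 of 21 alternatives, quantile normalization and cyclic loess among them. Their mean level was 8.45, 8.58 and 9.26 on the Ly6C-high arrays, 11.16, 11.60 and 11.52 on the Ly6C-low arrays, and 6.88, 6.94 and 6.85 on the monocyte arrays. Olfml3 (-3.69), Fcrls (-3.66) and Tmem119 (-3.27) differed most. All 8 brain endothelial markers went the other way, beside 4.49% of all genes called higher. The mean levels of these markers were 10.76 to 11.27 in Ly6C-high cells, 6.69 to 8.08 in Ly6C-low cells, and 6.60 to 6.77 in monocytes. Emcn, an endothelial sialomucin, had a log2 fold change of 5.18 between Ly6C-high and Ly6C-low microglia (adjusted p = 1.15e-05). In sorted bulk RNA, fewer cells of a type and less RNA per cell cannot be told apart, and the part of either marker list in the Siglec differences was not tested. Of 5 measured plasmacytoid dendritic cell markers (of 6 listed), 3 were lower in either brain sort than in monocytes. Of all genes, 14.6% and 7.71% were called lower in Ly6C-high and Ly6C-low microglia. Among the 3, Cox6a2 lost its call in 7 of 21 alternatives in each sort. The mean level of the 5 was 5.44 to 5.74 on the Ly6C-high arrays, 5.50 to 5.78 on the Ly6C-low arrays and 7.03 to 7.18 on the monocyte arrays. The part of such cells in the monocyte Siglech level was not tested. The 5 and their means include Klk1b1, which was matched to the listed Klk1 through an older name. Klk1b1 read 3.65 to 4.01 on the 9 arrays and was not called against monocytes.

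**Figure D2:**
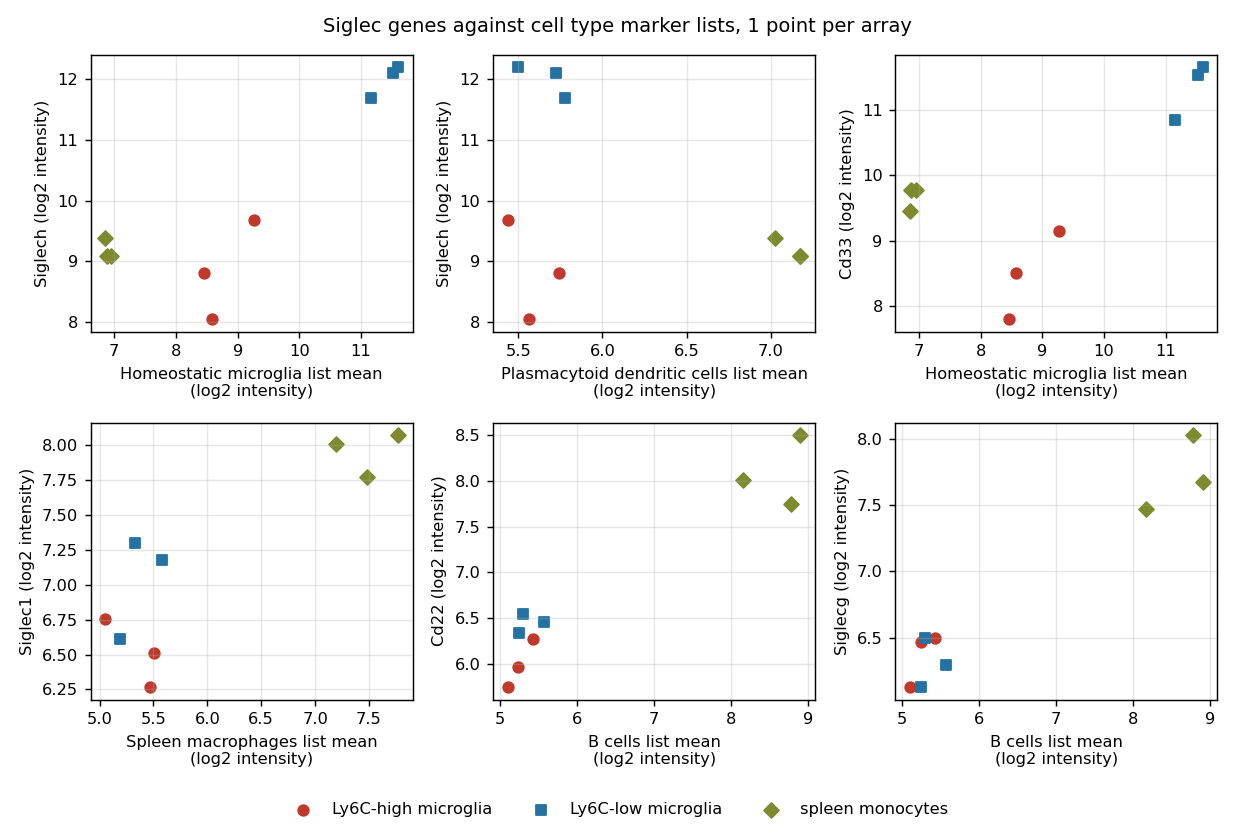
Log2 intensity of a Siglec gene (vertical) against the mean log2 intensity of a cell type marker list (horizontal), with a point for each array, coloured by group. Siglech and Cd33 are set against homeostatic microglia markers, and Siglech also against plasmacytoid dendritic cell markers. Siglec1 is set against spleen macrophage markers, and Cd22 and Siglecg against B cell markers. Homeostatic microglia markers average 8.45 to 9.26 on Ly6C-high arrays and 11.16 to 11.60 on Ly6C-low arrays, and B cell markers are highest on monocyte arrays.

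Siglece (Entrez gene 83382), an inhibitory receptor of myeloid cells, read 6.19, 7.04 and 5.82 in Ly6C-high cells, 8.79, 9.08 and 8.88 in Ly6C-low cells, and 8.89, 8.93 and 9.46 in monocytes. The Ly6C-high arrays lay below all others, and the Ly6C-low and monocyte arrays overlapped. Its means were 6.35 ± 0.62 in Ly6C-high cells, 8.92 ± 0.14 in Ly6C-low cells, and 9.09 ± 0.32 in monocytes. Siglece was lower in Ly6C-high microglia than in Ly6C-low microglia by a log2 fold change of -2.57 ± 0.30 (SE, adjusted p = 0.000681). It was lower in Ly6C-high microglia than in monocytes at -2.75 ± 0.30 (6.71-fold, adjusted p = 0.000427). Ly6C-low microglia and monocytes did not differ beyond the spread, at -0.18 with a 95% interval of -0.85 to 0.50 (adjusted p = 0.803). The 1027 olfactory receptor genes on the array give a scale for dim signals: their 95th percentile was 5.67 to 6.41 on the Ly6C-high arrays. On Ly6C-high replicates 1 and 3, 93.2% and 94.9% of them lay below Siglece, so its level there was close to that of dim probe sets and RMA can compress its fold.

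Within the Ly6C-high group, Siglece was highest on replicate 2, the array on which the classical monocyte markers were also highest. The mean of the 5 measured classical monocyte markers was 6.55, 8.96 and 5.56 on Ly6C-high replicates 1, 2 and 3, against 5.69, 5.63 and 6.20 in Ly6C-low microglia. Without that array, Siglece differed from Ly6C-low microglia by a log2 fold change of -2.91 (limma adjusted p = 0.000175). Siglech was highest on replicate 3, where the homeostatic microglia markers were highest too. It was lowest on replicate 2, while those markers averaged lowest on replicate 1 (8.45, 8.58 and 9.26 on replicates 1, 2 and 3). Without Ly6C-high replicate 2 the log2 fold change of Siglech against Ly6C-low microglia was -2.75, and without replicate 3 it was -3.57. Among the Ly6C-low arrays, replicate 3 stood apart in neutrophil markers, whose mean was 9.61 there and 6.69 and 6.97 on the other two. The neutrophil list averaged 5.72 to 6.93 on the Ly6C-high arrays and 10.17 to 10.80 on the monocyte arrays. Leaving out both of these arrays at once gave -2.70 for Siglech, -2.78 for Cd33 and -2.93 for Siglece between the brain sorts, all past the threshold.

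Siglec1 (Entrez gene 20612), the sialoadhesin of tissue macrophages, read 6.51, 6.76 and 6.27 in Ly6C-high cells, 7.18, 7.30 and 6.61 in Ly6C-low cells, and 8.01, 7.77 and 8.07 in monocytes. Every brain array lay below every monocyte array, and the brain sorts overlapped through Ly6C-low replicate 3. Its means were 6.51 ± 0.25 in Ly6C-high cells, 7.03 ± 0.37 in Ly6C-low cells, and 7.95 ± 0.16 in monocytes. Of the olfactory receptor genes, 95.8%, 99.4% and 97.7% lay below Siglec1 on Ly6C-high replicates 1, 2 and 3, so replicate 1 was close to dim probe sets. Siglec1 was lower in Ly6C-high microglia than in monocytes by a log2 fold change of -1.44 ± 0.20 (2.71-fold, adjusted p = 0.00177). In Ly6C-low microglia it was lower than in monocytes at -0.92 ± 0.20 (1.89-fold, adjusted p = 0.0175), a call that ended without monocyte replicate 1 (-0.89, adjusted p = 0.0684) or 3 (-0.86, adjusted p = 0.0645). Between the brain sorts the difference was -0.52 ± 0.20 and missed the threshold (adjusted p = 0.137). It passed without Ly6C-low replicate 3, at -0.73 (limma adjusted p = 0.0417). Of 5 spleen macrophage markers, 3 were lower in Ly6C-high microglia and 4 lower in Ly6C-low microglia than in monocytes, beside 14.6% and 7.71% of all genes. Their mean level was 5.05 to 5.50 in Ly6C-high cells, 5.19 to 5.58 in Ly6C-low cells, and 7.19 to 7.77 in monocytes. Marco was called in neither, at 5.12 in Ly6C-high cells, 5.16 in Ly6C-low cells and 5.27 in monocytes, and Timd4 lost its Ly6C-low call in 11 of 20 alternatives. Spic, the transcription factor of splenic red pulp macrophages, averaged 4.13 in Ly6C-high cells, 4.26 in Ly6C-low cells, and 9.87 in monocytes. Border-associated macrophages of the brain can also express Siglec1. Of 7 border-associated macrophage markers, 0 were higher and 2 lower in Ly6C-high than in Ly6C-low microglia (Ms4a7 not in 7 of 20 alternatives), beside 4.49% and 11% of all genes. Their mean levels were 5.65 to 5.98 on the Ly6C-high arrays, 6.24 to 7.38 on the Ly6C-low arrays and 6.53 to 7.17 on the monocyte arrays. The part of either macrophage list in the Siglec1 values was not tested.

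The B cell lectins were highest in the monocyte arrays. Cd22 (Entrez gene 12483) read 6.27, 5.96 and 5.75 in Ly6C-high cells, 6.55, 6.34 and 6.46 in Ly6C-low cells, and 8.01, 7.75 and 8.50 in monocytes. The 3 groups did not overlap, although the brain sorts lay close together. Its means were 5.99 ± 0.26 in Ly6C-high cells, 6.45 ± 0.10 in Ly6C-low cells, and 8.09 ± 0.38 in monocytes. Cd22 was lower in Ly6C-high microglia than in monocytes by a log2 fold change of -2.09 ± 0.21 (4.27-fold, adjusted p = 0.000260). It was lower in Ly6C-low microglia than in monocytes at -1.64 ± 0.21 (3.11-fold, adjusted p = 0.00103). Between the brain sorts it differed by -0.46 with a 95% interval of -0.93 to 0.02 (adjusted p = 0.191). On the Ly6C-high arrays, 93.8% to 97.1% of the olfactory receptor genes lay below Cd22, a level close to that of dim probe sets.

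Siglecg (Entrez gene 243958), the Siglec that restrains B1 cells, read 6.50, 6.47 and 6.13 in Ly6C-high cells, 6.50, 6.13 and 6.30 in Ly6C-low cells, and 7.47, 8.03 and 7.67 in monocytes. The brain sorts overlapped and lay below all monocyte arrays. Its means were 6.37 ± 0.21 in Ly6C-high cells, 6.31 ± 0.18 in Ly6C-low cells, and 7.72 ± 0.28 in monocytes. Of the olfactory receptor genes, 95.7%, 99% and 96.9% lay below Siglecg on Ly6C-high replicates 1, 2 and 3, levels not far from dim probe sets. Siglecg was lower than in monocytes by a log2 fold change of -1.36 ± 0.18 in Ly6C-high microglia (2.56-fold, adjusted p = 0.00115) and by -1.41 ± 0.18 in Ly6C-low microglia (2.67-fold, adjusted p = 0.00100). Between the brain sorts the difference was 0.06 with a 95% interval of -0.35 to 0.46 (adjusted p = 0.850), and its sign turned under some alternatives.

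All 7 measured B cell markers (of 8 listed) were lower in either brain sort than in monocytes, beside 14.6% and 7.71% of all genes. The markers' median log2 fold changes were -4.04 in Ly6C-high microglia and -3.30 in Ly6C-low microglia. Their mean level was 5.10 to 5.43 in Ly6C-high cells, 5.24 to 5.57 in Ly6C-low cells, and 8.17 to 8.91 in monocytes. Cd79a, a chain of the B cell receptor, averaged 4.92 in Ly6C-high cells, 5.43 in Ly6C-low cells, and 9.88 in monocytes. On every Ly6C-high array Cd79a, Ms4a1, Fcer2a and Cr2 lay below the olfactory receptor genes' 95th percentile. Ms4a1, Fcer2a and Cr2 did so on every Ly6C-low array too, which limits the sizes of the B cell medians. The monocyte arrays also held markers of the labelled cell type. Nonclassical monocyte markers averaged 7.01 to 7.16 on the Ly6C-high arrays, 6.29 to 6.62 on the Ly6C-low arrays and 9.68 to 9.80 on the monocyte arrays, where classical ones averaged 9.55 to 9.95. Of the 5 nonclassical markers, 1 was called between the brain sorts and 4 were not, beside 15.4% of all genes called. That 1 was Pglyrp1, at 10.99 in Ly6C-high cells, 7.22 in Ly6C-low cells and 10.17 in monocytes. How much of the Cd22 and Siglecg signal came from B cells was not tested.

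**Figure D3:**
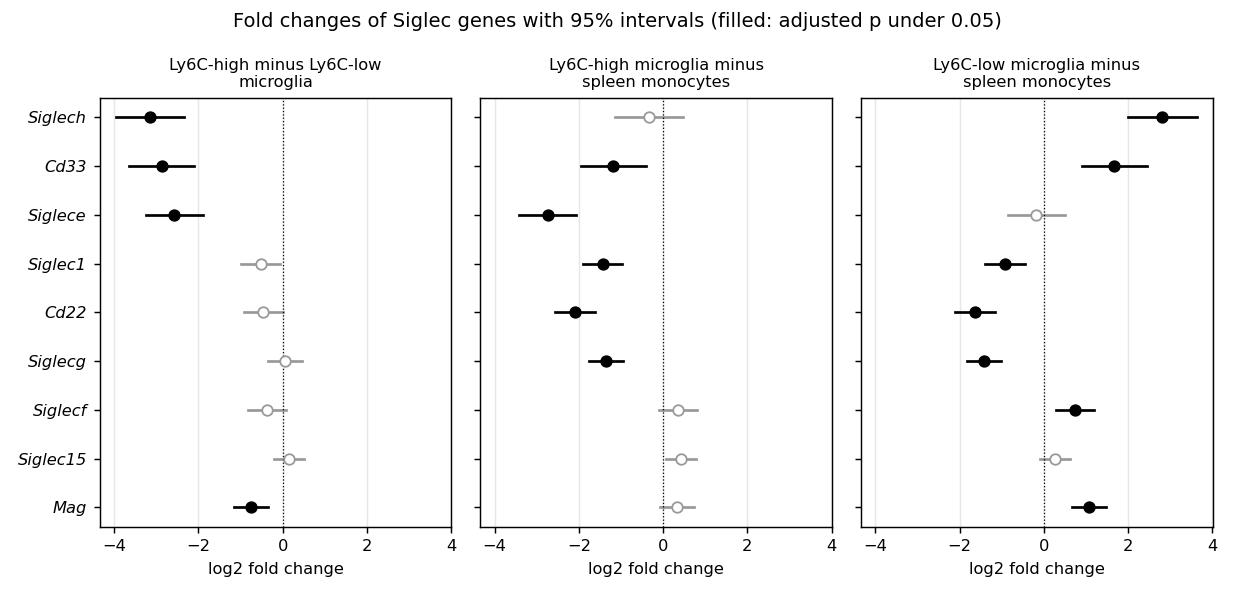
Log2 fold change of each Siglec gene, members and other family genes, in the 3 comparisons, with the 95% interval of the limma fit; negative values are lower in the first-named group. Siglech, Cd33 and Siglece lie furthest below 0 in Ly6C-high against Ly6C-low microglia, and only Siglech and Cd33 among the members are called higher in Ly6C-low microglia than in monocytes.

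The order of the groups differed between members. Siglech and Cd33 were highest in Ly6C-low microglia; Siglec1, Cd22 and Siglecg were highest in monocytes; and Siglece was at like levels in Ly6C-low microglia and monocytes, with neighbours not separated beyond their spread. Across the 9 arrays, Pearson's r was 0.91 between Siglech and Cd33, 0.92 between Siglec1 and Cd22, 0.91 between Siglecg and Cd22, and -0.45 between Siglech and Siglecg. These describe arrays that fall into 3 groups. Among 9598 brighter genes, the patterns most like Siglech over the 9 arrays were those of P2rx7, Rtn4rl1 and Tgfbr1 (r = 0.991, 0.990 and 0.987). Those most like Cd33 were Fcgr1, Edem2 and Skil (0.995, 0.992 and 0.991), and those most like Siglece were Chd8, Fnbp1 and Pes1 (0.994, 0.991 and 0.987). Cyb5r1, Wdr3 and Cd36 were most like Siglec1 (0.975, 0.970 and 0.960). Ccr3, H2-Ab1 and Cd5 were most like Cd22 (0.992, 0.983 and 0.981), and Tnfrsf13c, Pou2af1 and Tnip1 most like Siglecg (0.992, 0.988 and 0.988).

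Of the other 3 Siglec genes measured, Siglecf, a Siglec of eosinophils and alveolar macrophages, read 7.41, 6.84 and 7.04 in Ly6C-high cells, 7.42, 7.53 and 7.47 in Ly6C-low cells, and 6.59, 6.49 and 7.13 in monocytes. The Ly6C-high arrays overlapped the monocyte arrays, and the Ly6C-low arrays lay above both other groups. Siglecf was higher in Ly6C-low microglia than in monocytes by a log2 fold change of 0.74 ± 0.20 (adjusted p = 0.0391), a call that ended in 11 of 21 alternatives. It ended without Ly6C-high replicate 3, any 1 Ly6C-low array or monocyte replicate 1 or 2, at 0.62 to 0.77 and adjusted p-values of 0.0523 to 0.143. Siglecf averaged lowest in the monocyte arrays, while the 4 eosinophil markers averaged 5.01 to 5.29 on the Ly6C-high arrays, 5.64 to 5.74 on the Ly6C-low arrays and 7.59 to 8.47 on the monocyte arrays. Prg2, the eosinophil granule major basic protein, averaged 5.61 in the Ly6C-high sort and 7.84 in the Ly6C-low sort and read 12.28, 11.88 and 10.75 in monocytes. Mag, the myelin-associated Siglec of oligodendrocytes, read 5.84, 5.65 and 5.33 in Ly6C-high cells, 6.61, 6.34 and 6.09 in Ly6C-low cells, and 5.11, 5.33 and 5.37 in monocytes. It was lower in Ly6C-high than in Ly6C-low microglia by a log2 fold change of -0.74 ± 0.18 (adjusted p = 0.0227), a call that ended when Ly6C-high replicate 3 was left out (-0.60), as it did without replicate 1 (-0.61) or 2 (-0.75) of the Ly6C-low sort. Mag was higher in Ly6C-low microglia than in monocytes at 1.07 ± 0.18 (adjusted p = 0.00418), a call that held in all 20 alternatives. On every Ly6C-high and monocyte array Mag lay below the olfactory receptor genes' 95th percentile, which limits the size of both differences. Of the 4 measured oligodendrocyte markers, 0 passed the test between the brain sorts, beside 15.4% of all genes. Siglec15, the Siglec of osteoclasts, averaged 6.91 ± 0.20 in Ly6C-high cells, 6.75 ± 0.25 in Ly6C-low cells, and 6.49 ± 0.10 in monocytes, and passed in no comparison. Against monocytes, its log2 fold change of 0.42 in Ly6C-high microglia (adjusted p = 0.0901) passed without Ly6C-high replicate 2, at 0.52 (limma adjusted p = 0.0488).

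Of 8 measured adaptor and signalling genes (of 10 listed), 0 were higher and 4 lower in Ly6C-high than in Ly6C-low microglia. Of all genes, 4.49% were called higher and 11% lower. The list's median log2 fold change was -1.08. Inpp5d, the inositol phosphatase SHIP1, read 8.01, 8.73 and 8.62 in Ly6C-high cells, 11.18, 11.31 and 11.27 in Ly6C-low cells, and 10.21, 10.57 and 10.36 in monocytes. The 3 groups did not overlap, and Inpp5d was lower in Ly6C-high than in Ly6C-low microglia at -2.80 ± 0.19 (adjusted p = 6.45e-05). Syk averaged 6.88 ± 1.14 in the Ly6C-high sort and 8.75 in the Ly6C-low sort (log2 fold change -1.87, adjusted p = 0.0270), and Ptpn6 averaged 8.15 in the Ly6C-high sort and 9.58 in the Ly6C-low sort (-1.43, adjusted p = 0.0199). Both calls ended without Ly6C-high replicate 1 or 3 or Ly6C-low replicate 2 or 3, that of Syk also without Ly6C-low replicate 1, with adjusted p-values of up to 0.0868 for Syk and 0.0773 for Ptpn6. Over all alternatives the log2 fold changes ranged from -2.51 to -1.42 for Syk and from -1.88 to -0.997 for Ptpn6. Tyrobp, which carries DAP12 and was singled out after its values were seen, read 10.80, 11.91 and 10.33 in Ly6C-high microglia and averaged 11.98 in Ly6C-low microglia and 12.15 in monocytes. It did not pass between the brain sorts (-0.97, adjusted p = 0.0950). Tyrobp was called lower in Ly6C-high microglia than in monocytes (-1.14, adjusted p = 0.0438), a call that ended in 12 of 21 alternatives.

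Against monocytes, 6 of the 8 adaptor and signalling genes, Tyrobp among them, were lower in Ly6C-high microglia and 0 higher. Of all genes, 14.6% were called lower and 6.88% higher. The list's median log2 fold change was -1.97. Fgr, a Src-family kinase, averaged 6.49 in Ly6C-high cells, 6.24 in Ly6C-low cells, and 9.93 in monocytes, and was lower in both brain sorts (-3.44, adjusted p = 0.000487, and -3.69, adjusted p = 0.000328). Hcst, which carries the adaptor DAP10, averaged 6.64 in Ly6C-high cells, 7.41 in Ly6C-low cells, and 9.43 in monocytes, and was lower in both brain sorts as well (-2.79 and -2.02). Syk was lower in Ly6C-high microglia than in monocytes too, at -3.25 (-3.90 to -2.67 over the alternatives). In Ly6C-low microglia against monocytes 2 of the 8 were higher and 2 lower, beside 6.8% and 7.71% of all genes. Among the higher was Socs3, a feedback inhibitor of cytokine signalling, at 10.23 in Ly6C-low microglia and 8.99 in monocytes (1.24, adjusted p = 0.000196).

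Of 5 carriers of Siglec ligands, 1 was higher and 1 lower in Ly6C-high than in Ly6C-low microglia, beside 4.49% and 11% of all genes. Cd24a, the sialylated carrier that Siglec-G binds, averaged 9.38 in Ly6C-high cells, 7.47 in Ly6C-low cells, and 10.89 in monocytes. It was higher in Ly6C-high than in Ly6C-low microglia by a log2 fold change of 1.90 (adjusted p = 0.00522), and lower in Ly6C-low microglia than in monocytes at -3.41 (adjusted p = 0.000237). Selplg, the sialomucin PSGL-1, averaged 10.35 in Ly6C-high cells, 12.59 in Ly6C-low cells, and 11.19 in monocytes, and was lower in Ly6C-high than in Ly6C-low microglia (-2.24, adjusted p = 7.16e-05). Against monocytes, 4 of the 5 carriers were lower in Ly6C-high microglia, beside 14.6% of all genes. Among them were the sialomucin Spn (CD43, -1.68) and Ptprc (CD45, -2.99, with a range of -3.71 to -2.28 over the alternatives). In Ly6C-low microglia against monocytes 1 was higher (Selplg, 1.40) and 2 lower, including Spn (-1.98), beside 6.8% and 7.71% of all genes.

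Of 7 sialic acid synthesis and transport genes, 3 were lower in Ly6C-high microglia and 2 lower in Ly6C-low microglia than in monocytes, and 0 were higher. The shares of all genes were 14.6% and 7.71% lower, and 6.88% and 6.8% higher. Cmah, the hydroxylase that makes N-glycolylneuraminic acid, the form preferred by mouse CD22, read 5.23, 5.05 and 4.73 in Ly6C-high cells, 5.35, 5.39 and 4.97 in Ly6C-low cells, and 7.80, 8.12 and 7.96 in monocytes. All brain arrays lay below all monocyte arrays, and Cmah passed the test in both brain sorts (adjusted p = 1.87e-05 in Ly6C-high and 2.50e-05 in Ly6C-low microglia). On every brain array Cmah lay below the 95th percentile of the olfactory receptor genes (5.67 to 6.41 on the Ly6C-high arrays and 5.57 to 5.84 on the Ly6C-low arrays), so no size is given for these differences. Nans, the sialic acid synthase, averaged 6.04 in Ly6C-high cells, 6.45 in Ly6C-low cells, and 7.23 in monocytes (-1.19 and -0.79). Its values of 5.95 and 5.77 on Ly6C-high replicates 1 and 3 lay below that percentile (6.41 and 5.81), which limits the -1.19. The call in Ly6C-low microglia ended without monocyte replicate 2 (adjusted p = 0.0539). Slc35a1 was lower in Ly6C-high microglia than in monocytes too (limma adjusted p = 0.0238). It lay below that percentile on every Ly6C-high array, so no size is given, and its call ended in 4 of 20 alternatives. Between the brain sorts 1 of the 7 was called, beside 15.4% of all genes. Slc17a5, the lysosomal sialic acid exporter, was lower in Ly6C-high microglia (-0.93, adjusted p = 0.0417), and that call ended in 13 of 21 alternatives. Among them were those without Ly6C-high replicate 1 or 2, Ly6C-low replicate 2 or 3 or monocyte replicate 3 (-1.10 to -0.71 over all alternatives, adjusted p up to 0.194).

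Sialyltransferases moved in both directions. Of 20 measured, 4 were higher and 3 lower in Ly6C-high than in Ly6C-low microglia (median log2 fold change 0.02). The shares of all genes were 4.49% and 11%. Among these calls, St3gal1 lost its higher call in 9 of 21 alternatives and St6galnac6 its lower call in 6 of 21. Against monocytes, 3 of the 20 were higher and 4 lower in either brain sort. The shares of all genes were 6.88% and 14.6% in Ly6C-high microglia, and 6.8% and 7.71% in Ly6C-low microglia. St6galnac4 lost its lower call in Ly6C-high microglia in 14 of 21 alternatives. In Ly6C-low microglia the higher calls of St6galnac4 and St3gal5 ended in 5 and 4 of 21. St6galnac2, which sialylates O-glycans, read 9.64, 9.67 and 9.62 in Ly6C-high cells, 7.60, 7.04 and 6.59 in Ly6C-low cells, and 6.84, 7.09 and 7.46 in monocytes. The Ly6C-high arrays stood above all others, at log2 fold changes of 2.57 against Ly6C-low microglia (adjusted p = 0.000294) and 2.52 against monocytes (adjusted p = 0.000278). St6galnac3 was higher in Ly6C-high microglia too, at 7.88, 7.27 and 7.94 on its arrays. Its levels of 5.26 to 5.61 on the Ly6C-low arrays and 4.94 to 5.52 on the monocyte arrays were at the olfactory receptor genes' 95th percentile or below it, so no size is given. St8sia4, a polysialyltransferase, read 8.99, 9.49 and 9.65 in Ly6C-high cells, 6.46, 7.56 and 7.22 in Ly6C-low cells, and 9.29, 9.29 and 9.64 in monocytes. Ly6C-low microglia lay below both other groups: the log2 fold change was 2.30 in Ly6C-high against Ly6C-low microglia and -2.33 in Ly6C-low microglia against monocytes. St3gal6 was higher in both brain sorts than in monocytes, at 9.80 in Ly6C-high cells, 9.84 in Ly6C-low cells, and 7.60 in monocytes. St3gal1, which caps O-glycans, was lower in Ly6C-low microglia than in monocytes, at 6.67 in the Ly6C-low sort and 9.81 in monocytes (-3.14, adjusted p = 0.000737), with a range of -3.30 to -1.69 over the alternatives. St6gal1, which makes the terminal linkage bound by CD22 and was singled out after its values were seen, averaged 7.74 in Ly6C-high cells, 7.90 in Ly6C-low cells, and 8.19 in monocytes and passed in no comparison. The endothelial markers described above were highest on the same Ly6C-high arrays as St6galnac2 and St6galnac3, and their part in these values was not tested.

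Of 4 sialidases, which remove Siglec ligands, 1 was lower in Ly6C-high than in Ly6C-low microglia: the lysosomal Neu1, at 6.88 in the Ly6C-high sort and 7.51 in the Ly6C-low sort (-0.63, adjusted p = 0.00845). The call ended when Ly6C-high replicate 2 and Ly6C-low replicate 3 were both left out (adjusted p = 0.0635). Neu2, which was below the olfactory receptor genes' 95th percentile on every array, and Neu1 (-0.39) passed in Ly6C-high microglia against monocytes, with adjusted p-values of 0.0459 and 0.0499, and these calls ended in 13 of 20 and 18 of 21 alternatives, single left-out arrays of all 3 groups among them, with adjusted p-values up to 0.128 and 0.517. In Ly6C-low microglia against monocytes 0 of the 4 passed. Over all 47 other Siglec-pathway genes, 5 were higher and 11 lower in Ly6C-high than in Ly6C-low microglia, 4 were higher and 18 lower in Ly6C-high microglia than in monocytes, and 8 were higher and 10 lower in Ly6C-low microglia than in monocytes. These counts stand beside 15.4%, 21.5% and 14.5% of all genes called in the same comparisons. By direction the shares of all genes were 4.49% higher and 11% lower, 6.88% and 14.6%, and 6.8% and 7.71%.

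**Figure D4:**
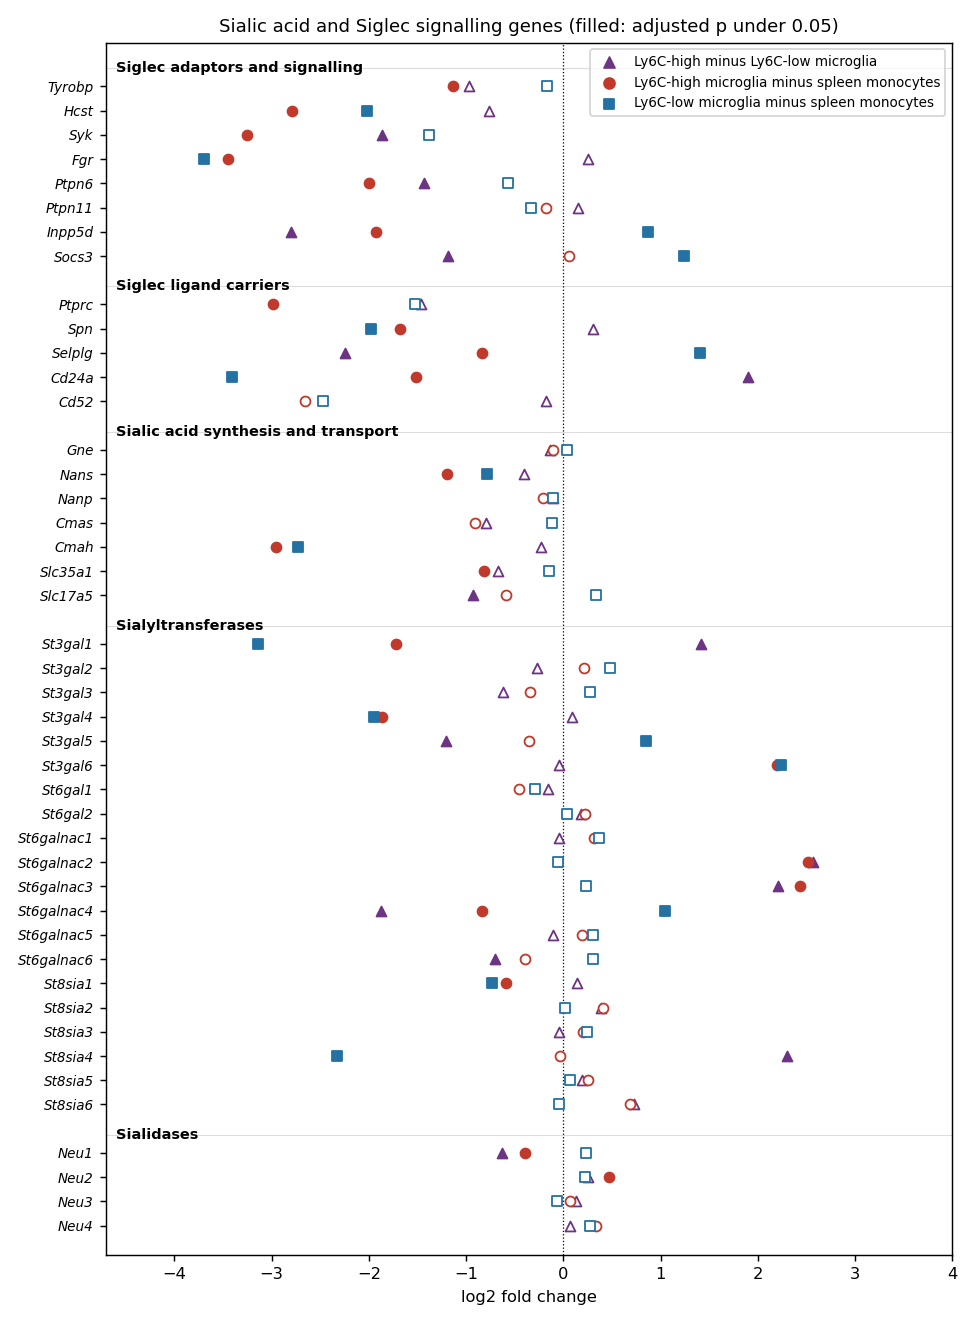
Log2 fold change in the 3 comparisons of each measured gene of the Siglec pathway lists, with 1 row per gene and filled points for genes with a limma adjusted p under 0.05. In Ly6C-high against Ly6C-low microglia, Inpp5d lies at -2.80, St6galnac2 at 2.57 and St8sia4 at 2.30.

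The 9 arrays had median log2 intensities of 5.83 to 5.96 over all 34760 probe sets. Pearson's r over the same probe sets was 0.872 to 0.924 between the Ly6C-high arrays, 0.967 to 0.980 between the Ly6C-low arrays and 0.978 to 0.983 between the monocyte arrays. The values of Ly6C-high microglia thus carry the widest spread. Of all genes called, 29.1% were higher in Ly6C-high than in Ly6C-low microglia, and 41.7% under quantile normalization and 43.9% under cyclic loess. Against monocytes these shares were 32% in Ly6C-high microglia, and 46.4% and 45% under the same scalings.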

How the data were processed

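Per the labels' protocols, total RNA of high integrity from sorted cells was made into cDNA, fragmented, labelled and hybridised to Affymetrix whole-transcript arrays. The values used are log2 intensities that the authors deposited, 1 column for each array. Per the submitters' processing notes, RMA and the oligo package were used; the version of each, the settings and the build are not given in the sources here. No further scaling was applied. RMA compresses differences of dim probe sets.

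The table holds 34760 probe sets; 21640 have 1 gene symbol in the platform annotation, 1321 several and 11799 none. Genes with several probe sets (954) were read from the brightest by mean over the 9 arrays, which left 19937 genes. Each Siglec member has 1 probe set. limma 3.58.1 in R 4.3.3 (lmFit, eBayes) estimated a mean for each of the 3 groups from all 9 arrays, with two-sided tests and Benjamini-Hochberg adjustment over all genes at 0.05. The procedure was run on simulated data in which each gene had the same SD in all 3 groups. That run cannot show how the fit behaves under the wider spread of the Ly6C-high arrays. With 3 arrays a group, the number of arrays limits the precision.

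All 6 members and the other Siglec genes were named, with up to 3 called genes of largest change from each pathway list and comparison, and the 3 genes most alike in pattern. Of the marker lists, only some of the genes that this rule picks were named. Some genes outside the rule, such as Marco and St6galnac6, were named too. The members, the pathway lists and the 11 marker lists were chosen with earlier results of these data known. Alternatives were 3 other scalings, other treatment of dim genes and of probe sets, array weights, another variance prior, the arrays of 2 groups alone, replicate blocks, and leaving out arrays. Title and description numbers were checked for pairing: deviations of arrays with the same title number correlated at -0.07 to 0.30 over 9 pairs, and those of the 2 pairs with the same description number at 0.21 and 0.30. The labels state no shared origin for either number, and neither was taken to pair the arrays. Promoters and gene identifiers come from RefSeq tables of GRCm38.p6, where 5 of the 6 members have a promoter.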

Additional observations from a re-analysis of the deposited data

How the results depend on the processing

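Each member was refitted under 21 alternatives. The calls of Siglech and Siglece in Ly6C-high against Ly6C-low microglia held in all 21, at log2 fold changes of -3.57 to -2.70 and -2.93 to -2.21, as did that of Cd33 (-3.20 to -2.42). The count of called members ranged over single left-out arrays from 3 to 4 between the brain sorts, from 4 to 5 in Ly6C-high microglia against monocytes and from 4 to 5 in Ly6C-low microglia against monocytes. The count of 16 called pathway genes between the brain sorts became 10 when only the arrays of the 2 groups were fitted, and ranged from 11 to 19 over left-out arrays; in the other 2 comparisons it ranged from 16 to 25 and from 14 to 22. With the title number as a replicate block 3, 5 and 5 members and 15, 22 and 18 pathway genes were called, and with the description number 3, 5 and 5 members and 17, 21 and 19 pathway genes. Over all genes the description block gave 3936 calls between the brain sorts; its 2 pairs had the highest correlations of deviations, a hint from the data and not from the design. The Cd33 call in Ly6C-low microglia against monocytes ended when Ly6C-high replicate 2 and Ly6C-low replicate 3 were left out together (1.58, adjusted p = 0.0595). The 3080 calls over all genes between the brain sorts became 2038 with the arrays of 2 groups, 2011 without Ly6C-low replicate 2 and 1956 without replicate 3. In Ly6C-high microglia against monocytes 4290 became 2505 without monocyte replicate 1 and 2511 without replicate 2. In Ly6C-low microglia against monocytes 2894 became 5738 with array weights, 4614 with the arrays of 2 groups and 1864 without monocyte replicate 1. The causes were not tested. Signals near the olfactory receptor range limit what the folds of Siglece, Cd22, Mag, Cmah, St6galnac3 and Neu2 can show. They also limit the folds of the B cell markers Cd79a, Ms4a1, Fcer2a and Cr2. The same limit holds for Fgr, Hcst, Syk, Nans and Fcrls, which lay below the 95th percentile of that range on Ly6C-high replicate 1. Siglec1 and Siglecg lay just above it there.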

Other observations

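The spread of the members within a group differed. In Ly6C-high microglia the SD of Siglech was 0.82, above that of 92.9% of all genes, and those of Cd33 and Siglece lay above 88.6% and 86.5%, while those of Siglecg and Siglec1 lay above 36.5% and 45.4%. In spleen monocytes Cd22 was among the more variable genes (SD 0.38, above 94.6%).

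The promoter windows of Cd33 and Siglecf, both on chromosome 7, shared a run of 16 bases, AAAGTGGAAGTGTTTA, which starts at position -157 from the start of Cd33 and at -27 from that of Siglecf and holds the GGAAGT core. The longest runs shared between the Siglech window and those of Siglece, Siglecg, Cd33 and Cd22 were 8 to 9 bases.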
